A study of Arabidopsis thaliana with 8 samples.

Results

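The genes described here are 7 neighbouring genes on the long arm of *Arabidopsis thaliana* chromosome 4 (AT4G22475, AT4G22485, AT4G22495, AT4G22505, AT4G22510, AT4G22513 and AT4G22517) out of 37336 genes in the count table. They were selected on their counts in this data set, near 0 in wild-type Col-0 and present in *somi2*, and on their position between bases 11844242 and 11857417 (TAIR10), a span of 13176 bp. Several overlap on opposite strands and share reads, so values of overlapping genes are not separate observations, and a level of the locus is also given over genes that share no exon base. Messenger RNA was sequenced in 8 libraries, 2 for each of 4 lines in the Col-0 background: *somi2*, *mips1 somi2*, *mips1* and Col-0. The *somi2* line carries an EMS-induced allele of *BIG* (the deposited labels name the gene only) that was isolated as a suppressor of the cell death of *mips1*. The *mips1* line carries a T-DNA insertion in *MIPS1*, which encodes the enzyme of myo-inositol synthesis, and *mips1 somi2* carries both alleles. The paper derived the *somi2* line from *mips1 somi2* by crosses to Col-0, and no other *big* allele is among the libraries. Any other EMS mutation left in both lines therefore cannot be told apart from the *somi2* allele. Effects of the allele named below are differences between lines. All plants had the same treatment, stated in the labels as 1 week in vitro, 2 weeks under short days (8 h of light) and 5 days under long days (16 h of light), the condition in which *mips1* forms lesions. Each library was made from rosette leaves pooled from several plants. Whether the 2 libraries of a line come from separate growths is not stated, so p-values measure the spread between these libraries, which may be technical.

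Of the 7 genes, 4 (AT4G22485, AT4G22505, AT4G22513 and AT4G22517) are annotated as members of the bifunctional inhibitor/lipid-transfer protein/seed storage 2S albumin superfamily. Proteins of this superfamily are small, usually secreted, and built on a fold of helices held together by cysteines joined in disulfide bridges. In its hybrid proline-rich branch, which includes EARLI1 and AZI1, a proline-rich stretch precedes the cysteine domain, and several such genes lie in tandem arrays. AZI1 is known from systemic immunity and EARLI1 from cold and salt responses. The other 3 genes (AT4G22475, AT4G22495 and AT4G22510) are uncharacterized models on the strand opposite to these.

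The reference sequence (RefSeq, TAIR10.1) shows how the 4 superfamily genes differ. AT4G22485 and AT4G22505 are long and proline-rich: 41.2% of 657 codons and 42.9% of 531 codons are proline codons (CCN), against a median of 4.54% over 27444 genes. AT4G22513 and AT4G22517 are short, with 116 codons each, and have proline shares of 3.45% and 4.31%. The coding sequences of this short pair are identical at 333 of 348 bases (95.7%), while those of the long pair are identical at 68.4% of aligned bases. A long and a short gene were identical at 72.3% to 76.8% of aligned bases, over far fewer bases. The value of the long pair thus does not mark these genes as closer to each other than to the short ones. The 30-codon stretch with most proline codons in each gene is printed below from 5′ to 3′ on the coding strand, with proline codons in capitals, because it separates the long pair from the short pair. The stretches lie at chr4:11852713-11852802 (minus strand), chr4:11844758-11844847 (minus), chr4:11854871-11854960 (plus) and chr4:11856813-11856902 (plus).
AT4G22505: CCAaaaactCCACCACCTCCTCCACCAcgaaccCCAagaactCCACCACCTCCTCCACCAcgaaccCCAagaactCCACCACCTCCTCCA
AT4G22485: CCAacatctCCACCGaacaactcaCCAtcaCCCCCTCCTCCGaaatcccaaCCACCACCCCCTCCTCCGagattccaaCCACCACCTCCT
AT4G22513: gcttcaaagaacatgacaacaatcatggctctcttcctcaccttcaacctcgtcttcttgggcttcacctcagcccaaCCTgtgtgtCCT
AT4G22517: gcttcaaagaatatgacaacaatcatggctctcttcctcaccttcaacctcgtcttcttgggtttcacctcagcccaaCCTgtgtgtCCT

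Proline codons filled 20 of 30 positions in AT4G22505 and 18 of 30 in AT4G22485, against 2 of 30 in each of the short genes. The 200 bases before the start of AT4G22505, AT4G22513 and AT4G22517 are printed next because these genes were silent together and present together. The window of AT4G22490 follows, since that gene lies inside the run but was not chosen. The windows are chr4:11853019-11853218 (minus), chr4:11854609-11854808 (plus), chr4:11856543-11856742 (plus) and chr4:11850437-11850636 (minus). Capitals mark the letters TATAAA, the core of a TATA box.
AT4G22505: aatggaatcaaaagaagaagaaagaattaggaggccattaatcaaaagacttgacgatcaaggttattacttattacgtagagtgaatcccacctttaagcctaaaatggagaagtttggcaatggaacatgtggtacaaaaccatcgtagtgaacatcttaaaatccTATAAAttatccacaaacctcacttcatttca
AT4G22513: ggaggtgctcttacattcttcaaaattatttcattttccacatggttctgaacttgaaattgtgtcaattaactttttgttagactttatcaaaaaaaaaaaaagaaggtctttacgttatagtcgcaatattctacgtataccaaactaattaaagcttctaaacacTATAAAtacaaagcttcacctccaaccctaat
AT4G22517: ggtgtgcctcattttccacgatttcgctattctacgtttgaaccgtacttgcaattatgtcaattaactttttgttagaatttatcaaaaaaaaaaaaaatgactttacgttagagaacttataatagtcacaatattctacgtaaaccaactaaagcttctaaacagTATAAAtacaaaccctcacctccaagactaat
AT4G22490: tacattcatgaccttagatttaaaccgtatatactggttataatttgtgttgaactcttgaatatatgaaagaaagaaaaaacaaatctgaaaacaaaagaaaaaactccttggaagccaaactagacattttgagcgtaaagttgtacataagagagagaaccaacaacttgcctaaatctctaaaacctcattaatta

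The letters TATAAA began 32 bases before the start in each of the 3 run genes shown. They were absent from the window of AT4G22490 and began 88 bases before the start of AT4G22485, whose window is not printed. The annotated exon of AT4G22485 is its coding sequence alone (1971 bp), while the exons of the 3 genes shown exceed their coding sequences. The 88 and 32 bases may thus be measured from unlike starts. On either strand and at any position, these letters occur in 41.0% of the 200-base windows of 27443 genes. The share of genes with a match at 32 bases was not counted, and AT4G22513 and AT4G22517 are near-copies. The match is thus a description only. The letters of the G-box (CACGTG), W-box (TTGACC), GCC box (GCCGCC) and auxin response element (TGTCTC) occur in 5.65%, 10.4%, 1.46% and 8.94% of windows. None of the 4 was found on either strand in the 5 windows of AT4G22490 and the superfamily genes of the run.

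The reads of these genes cannot all be told apart. AT4G22475 and AT4G22485 share 1842 exon bases (81.5% and 93.5% of their exons), and AT4G22495 and AT4G22505 share 1720 (98.9% and 92.3%). AT4G22510 shares 384 bases with AT4G22513 and 280 bases with AT4G22517. The counting ignored strand, and a read lying over more than 1 gene was counted for each, so the sense gene and its antisense model cannot be separated, and the 7 rows of counts come from 3 blocks of overlapping exons. The exons cover 5591 bases once, or 9817 when summed over the genes. Words of 75 bases, the read length, occurred once in the genome for 100% of positions in 5 of the genes, and for 94.9% in AT4G22475 and 94.3% in AT4G22485. The near-identical pair AT4G22513 and AT4G22517 was thus separable at this read length.

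The labels were checked on the mutated genes. *MIPS1* had 9.85 and 10.8 CPM (counts per 1000000, TMM-scaled) in *mips1 somi2* and 5.30 and 6.12 CPM in *mips1*, against 104 and 94.7 CPM in *somi2* and 120 and 152 CPM in Col-0. *BIG* had 57.2 and 62.1 CPM in *somi2*, against 113 and 132 CPM in Col-0, and 93.4 and 89.9 CPM in *mips1 somi2*, against 205 and 212 CPM in *mips1*. Both genes were thus lower in the lines that carry their mutation. Library totals ran from 50123257 to 104501879 counts, so that the 3 counts used as the limit of detection stood for 0.0273 to 0.0716 CPM. Marker genes of leaf mesophyll summed to 31236 to 31972 CPM in *somi2* and 25042 to 27032 CPM in *mips1 somi2*, against 14919 to 14990 CPM in *mips1* and 46788 to 48354 CPM in Col-0. Of the 5 markers, 4 were called lower in *somi2* against Col-0 by edgeR, where 23.6% of all genes tested were. *GAPA* was not, and its libraries overlapped (1351 and 1292 CPM in *somi2*, against 1322 and 1464 CPM in Col-0). In libraries made from whole leaves, fewer cells of a type and less RNA per cell cannot be told apart.

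All 7 genes had 143 to 1357 counts in each library of *somi2* and *mips1 somi2*, and no more than 2 in any library of *mips1* or Col-0. In *somi2* against Col-0 these values chose the genes and are given as a description. AT4G22505, the long proline-rich gene with most reads, had 1282 and 986 counts in *somi2* and 1357 and 634 in *mips1 somi2*, against 1 and 0 in *mips1* and 0 and 0 in Col-0. Its antisense model AT4G22495, with nearly the same exons, had 1272 and 975 counts in *somi2* and 1338 and 628 in *mips1 somi2*, against 1 and 0 in *mips1* and 0 and 0 in Col-0. Neither gene had a read in Col-0, and both overlap so far that they are the same observation.

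The other long proline-rich gene, AT4G22485, had 1003 and 505 counts in *somi2* and 868 and 396 in *mips1 somi2*, against 0 and 2 in *mips1* and 2 and 0 in Col-0. AT4G22475, antisense to it, had 1169 and 651 counts in *somi2* and 970 and 485 in *mips1 somi2*, against 0 and 2 in *mips1* and 2 and 0 in Col-0. This block was the only one with reads in both *mips1* and Col-0, under the limit of detection.

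The short genes had no count in any library of *mips1* or Col-0. AT4G22513 had 679 and 548 counts in *somi2* and 467 and 274 in *mips1 somi2*. Its near-copy AT4G22517 had 286 and 218 counts in *somi2* and 284 and 143 in *mips1 somi2*. AT4G22510, whose 2 exons lie opposite to those of the pair, had 639 and 504 counts in *somi2* and 495 and 271 in *mips1 somi2*. A count of 0 shows only that these transcripts were under the limit of detection, and not that they were absent.

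**Figure D1:**
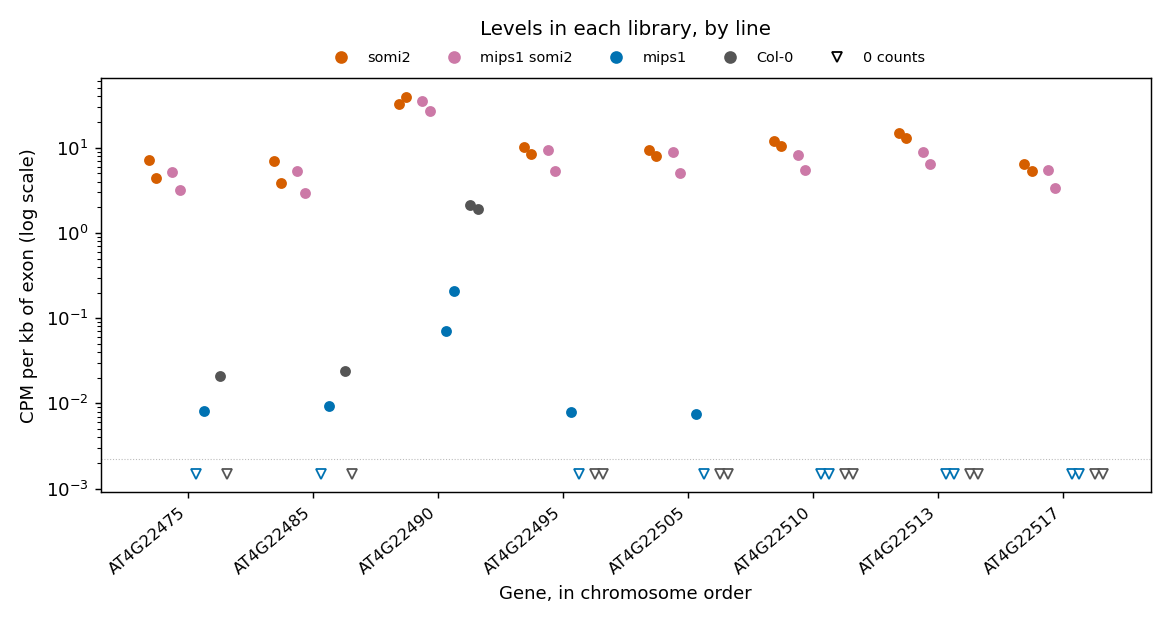
Level of each gene of the run and of AT4G22490 in every library, as CPM per kb of exon on a log axis, with 1 point for each library (2 for each line) and open triangles for libraries with 0 counts. The *somi2* and *mips1 somi2* libraries sit together at the top for every gene, and only AT4G22490 has a clear level in Col-0, of 2.02 CPM per kb on average.

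The change in *mips1 somi2* against *mips1* concerns libraries that were not named in the choice of the genes, although the choice was made with all results of the series known. The 7 genes passed the filter on low counts only through the lines with the *somi2* allele and are at the limit of detection in *mips1*, so a call could only be in 1 direction and is given as a description. The edgeR quasi-likelihood test called 7 of 7 genes higher, with Benjamini-Hochberg adjusted p-values over 23916 genes of 6.16e-09 (AT4G22513) to 4.70e-04 (AT4G22485). Of all genes tested, 39.1% were called higher in this comparison, and nothing is read from the difference. Both *mips1 somi2* libraries lay above both *mips1* libraries for 7 of 7 genes, against 45.6% of all genes tested, and both *somi2* libraries lay above both Col-0 libraries, which the choice fixed, for 7 of 7 against 36.7%. Since 3 blocks share their reads, the 7 calls are not 7 separate observations.

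Fold changes are given from the summed counts, because a fitted value against 0 counts depends on the constant added to it. In *mips1 somi2* against *mips1*, AT4G22510, AT4G22513 and AT4G22517 were at least 154-fold, 149-fold and 85.9-fold higher, against the limit of 3 counts in each of the 2 *mips1* libraries. The ratio was 878 for AT4G22475 (95% exact counting interval 243 to 7260) and 763 for AT4G22485 (211 to 6308). For AT4G22495 and AT4G22505 it was 2374 (426 to 93807) and 2404 (431 to 94999), on 1 count in *mips1*. AT4G22475 and AT4G22485 had 2 counts in *mips1*. These counts are also under the limit, so the ratios and the bounds follow different rules and their sizes cannot be compared. In *somi2* against Col-0 the genes were chosen on these same counts, so the values that follow are a description. The ratio there was 833 for AT4G22475 (230 to 6884) and 690 for AT4G22485 (191 to 5705), each on 2 counts in Col-0, also under the limit. On the same limit in each of the 2 Col-0 libraries, AT4G22495 was at least 343-fold, AT4G22505 346-fold, AT4G22510 174-fold, AT4G22513 187-fold and AT4G22517 76.9-fold higher in *somi2*. These intervals cover counting error only, on the 2 libraries of a line summed, and neither the spread between the libraries nor the choice of the genes.

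Within the 2 lines that carry the *somi2* allele, levels per kb of exon were of the same order for all genes. Overlapping genes count the same reads, so the order below holds for rows of the table and not for separate transcripts. In *somi2*, AT4G22513 was highest, at 13.99 ± 1.22 CPM per kb (SD, n = 2), followed by AT4G22510 at 11.2 ± 1.16, AT4G22495 at 9.29 ± 1.15 and AT4G22505 at 8.74 ± 1.06, of which the last pair overlapped. AT4G22517 (5.84 ± 0.743), AT4G22475 (5.75 ± 1.97) and AT4G22485 (5.45 ± 2.23 CPM per kb) followed, and these 3 did not differ beyond their spread. In *mips1 somi2*, AT4G22513 was at 7.69 ± 1.80 CPM per kb, AT4G22495 at 7.33 ± 2.82, AT4G22505 at 6.92 ± 2.68 and AT4G22510 at 6.83 ± 1.92. AT4G22517 (4.48 ± 1.51), AT4G22475 (4.19 ± 1.43) and AT4G22485 (4.15 ± 1.67 CPM per kb) were lowest in that line as well, and the libraries of neighbours in this order overlapped. AT4G22513 thus stood above its near-copy AT4G22517 in *somi2* by more than their spread.

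All 7 genes had a lower mean in *mips1 somi2* than in *somi2*, but the libraries overlapped for 5 of them. AT4G22513 had 5.66 and 4.05 CPM in *mips1 somi2*, against 9.37 and 8.28 CPM in *somi2*, and AT4G22510 had 5.998 and 4.01 CPM in *mips1 somi2*, against 8.82 and 7.62 CPM in *somi2*. These 2 genes, which share reads, were the ones whose libraries did not overlap. Ratios of *mips1 somi2* to *somi2* from summed counts ran between 0.557 (AT4G22513) and 0.810 (AT4G22505), with no test for the genes in this comparison.

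The 2 libraries of a line also differed from each other in the run. Replicate 1 was above replicate 2 for all 7 genes, by 1.13 to 1.81 times in *somi2* and 1.40 to 1.80 times in *mips1 somi2* (CPM). In *somi2*, a larger difference between the libraries was seen in only 0.134% of 18690 genes for AT4G22475 and 0.107% for AT4G22485, which share reads, and in 2.702% (AT4G22517) to 8.32% (AT4G22513) for the other 5. In *mips1 somi2*, a larger difference was seen in only 0.182% (AT4G22485) to 0.835% (AT4G22513) of these genes, so the libraries of that line differed unusually over all 7. AT4G22490, inside the run, was at 0.845 times in *somi2* and 1.30 times in *mips1 somi2*. Summed over the 3 genes that share no exon base (AT4G22475, AT4G22505 and AT4G22510), the locus stood at 42.6 and 32.4 CPM in *somi2* and 34.2 and 20.6 CPM in *mips1 somi2*, against 0.0140 and 0.0182 CPM in *mips1* and 0.0478 and 0 CPM in Col-0.

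AT4G22490, a superfamily gene of the run's interior (chr4:11849653-11850436, minus strand), was not among the chosen genes and had a level in wild type. It had 25.9 and 30.6 CPM in *somi2* and 27.7 and 21.3 CPM in *mips1 somi2*, against 0.0559 and 0.164 CPM in *mips1* and 1.67 and 1.49 CPM in Col-0. Both lines with the *somi2* allele, which overlapped each other, lay above both other lines, and in Col-0 the level was well above the limit of detection. It rose in *somi2* against Col-0 (log2 fold change 4.17 ± 0.193 SE, edgeR adjusted p = 2.72e-07) and in *mips1 somi2* against *mips1* (7.65 ± 0.265, adjusted p = 5.17e-09). It fell in *mips1* against Col-0 (log2 fold change -3.68, edgeR adjusted p = 1.12e-05; 37.1% of all genes were called lower), a comparison in which the chosen genes lie at or under the limit of detection in both lines and cannot be read.

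The genes inside and next to the run, taken by position alone, moved in both directions. Of 11 genes (AT4G22490 and 5 on each side), 8 had enough counts to be tested. AT4G22467 and AT4G22470 share reads, as do AT4G22520 and AT4G22530, so these are not 8 separate observations. In *somi2* against Col-0, 3 rose, 4 fell and 1 did not pass the edgeR test, where 25.6% of all genes tested were called higher and 23.6% lower. Besides AT4G22490, the risers were AT4G22520 and AT4G22530. AT4G22520, another superfamily gene, had 3.73 and 4.32 CPM in *somi2* and 3.83 and 3.08 CPM in *mips1 somi2*, against 1.40 and 1.03 CPM in *mips1* and 0.143 and 0.106 CPM in Col-0. Its log2 fold change was 5.06 in *somi2* against Col-0 (edgeR adjusted p = 2.68e-08) and 1.53 in *mips1 somi2* against *mips1* (adjusted p = 5.94e-06). Every exon base of AT4G22520 also lies in AT4G22530, a methyltransferase gene on the opposite strand. Its reads may belong to either and were counted for both, so the rise of AT4G22530 in *somi2* includes them. AT4G22530 had 11.3 and 12.2 CPM in *somi2* and 15.3 and 14.7 CPM in *mips1 somi2*, against 29.9 and 31.0 CPM in *mips1* and 6.61 and 5.52 CPM in Col-0. The 2 overlapping genes thus differed in order between the lines.

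To the left of the run, AT4G22470 and AT4G22467, which share most of their exons, went the other way. AT4G22470, a proline-rich superfamily gene (28.2% proline codons), had 0.925 and 0.922 CPM in *somi2* and 0.824 and 0.532 CPM in *mips1 somi2*, against 3.86 and 3.90 CPM in *mips1* and 1.36 and 2.06 CPM in Col-0. It fell by 0.93 on the log2 scale in *somi2* against Col-0 (edgeR adjusted p = 0.00488) and by 2.50 in *mips1 somi2* against *mips1* (adjusted p = 3.50e-07). The superfamily gene AT4G22460 and its overlapping partner AT4G22463 had at most 3 counts in any library, and AT4G22450 had none. On the right, *ORP2A* (AT4G22540), an oxysterol-binding related protein gene, fell by 0.54 and 0.48 in the same comparisons, and AT4G22545 fell by 1.03 in *somi2* against Col-0 and rose by 1.01 in *mips1 somi2* against *mips1*. *LPPbeta* (AT4G22550), a lipid phosphate phosphatase gene, had log2 fold changes of -0.24 and -0.09 and passed the test in neither. In *mips1 somi2* against *mips1*, 3 of the 8 neighbours rose (AT4G22490, AT4G22520 and AT4G22545) and 4 fell, where 39.1% of all genes were called higher and 38.9% lower.

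**Figure D2:**
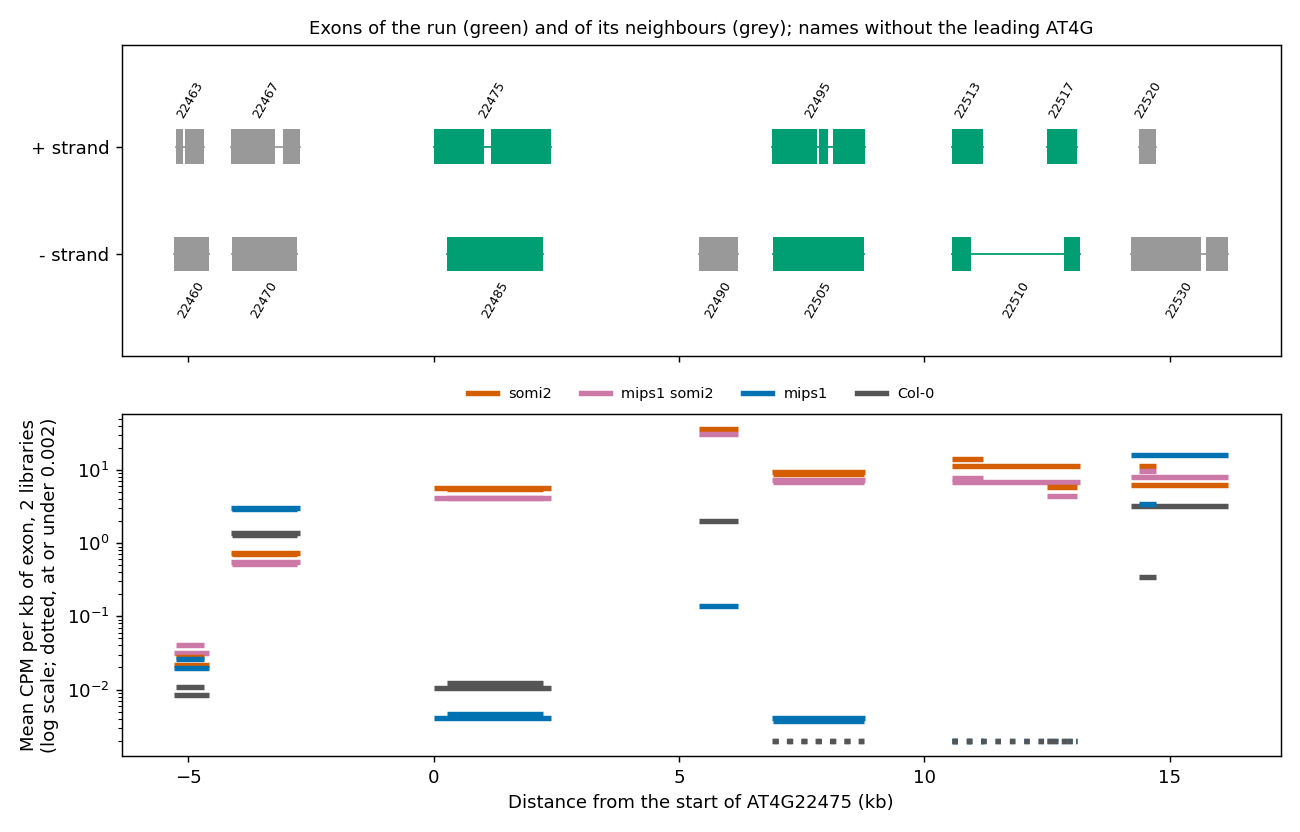
Map of the run and its neighbours by distance in kb from the start of AT4G22475, with exons above (chosen genes in green, neighbours in grey) and the mean CPM per kb of exon of 2 libraries for each line below, on a log axis. In *somi2* and *mips1 somi2* the levels stand at 4.15 to 36.0 CPM per kb over the chosen genes and AT4G22490, whereas to the left AT4G22470 is lower in these lines than in *mips1* and Col-0.

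Other genes with this on and off pattern were counted over the whole table, and a longer run of them was seen at 1 place only. Of 37336 genes, 13436 had at most 3 counts in each Col-0 library, and 90 of these (0.241% of all genes) had at least 0.5 CPM in each *somi2* library, the 7 genes included. Of the 90, 48 also had at most 3 counts in each *mips1* library, and 42 of those also had at least 0.5 CPM in each *mips1 somi2* library. By this rule, 1 run of 3 or more consecutive genes was found, from AT4G22495 to AT4G22517 with 5 genes, which make up 2 blocks of overlapping exons that share reads. The other 2 genes, AT4G22475 and AT4G22485, formed a run of 2, parted from it by AT4G22490, and 5 further runs of 2 lay elsewhere. The run was chosen for this pattern, so these counts are a description.

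The genes closest in pattern were sought over the 8 libraries, by the Pearson correlation of their log2 CPM with the mean of the 7 genes among 1159 genes with a comparable range. This is a description, since the 8 libraries fall into 2 sets of lines and any gene present in the same lines correlates: 171 genes had r of at least 0.95. The 5 highest were *CDEF1* (r = 0.998), which encodes a cutinase-like lipase known from pollen, AT3G26550 (0.998), AT5G59330 (0.997), *LSH2* (0.996) and *STM* (0.996). *CDEF1* had 4.50 and 5.17 CPM in *somi2* and 5.00 and 2.94 CPM in *mips1 somi2*, against 0 and 0.00911 CPM in *mips1* and no count in Col-0. AT5G59330 belongs to the same superfamily as the run and had 0.828 and 0.937 CPM in *somi2* and 0.569 and 0.473 CPM in *mips1 somi2*, with no count in *mips1* or Col-0. *STM*, the homeobox gene that maintains the shoot meristem, had 4.43 and 3.52 CPM in *somi2* and 4.31 and 3.81 CPM in *mips1 somi2*, against 0 and 0.0182 CPM in *mips1* and 0.0239 and 0.0118 CPM in Col-0. With a smaller constant added before the logarithm (0.5 in place of 2 counts), 2 of these 5 genes stayed among the 5 highest.

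Markers of tissues other than leaf were read beside the run. Of the 3 shoot meristem markers, *STM* moved with the run, *WUS* had 0 counts in *somi2*, *mips1* and Col-0 and 2 in each *mips1 somi2* library, and *CLV3* had at most 3 counts in any library. The 3 markers summed to 3.55 to 4.47 CPM in *somi2* and 3.89 to 4.35 CPM in *mips1 somi2*, against 0 to 0.0273 CPM in *mips1* and 0.0118 to 0.0716 CPM in Col-0. The 4 flower markers summed to 2.43 to 2.55 CPM in *somi2* and 1.73 to 2.16 CPM in *mips1 somi2*, against 2.21 to 2.35 CPM in *mips1* and 1.29 to 1.42 CPM in Col-0, but their members moved in different ways. *AG* had 2.30 and 2.25 CPM in *somi2* and 1.68 and 1.43 CPM in *mips1 somi2*, against 0.294 and 0.264 CPM in *mips1* and 1.15 and 1.25 CPM in Col-0. It rose in *somi2* against Col-0 (log2 fold change 0.92, edgeR adjusted p = 7.59e-04) and in *mips1 somi2* against *mips1* (2.49, adjusted p = 1.56e-07). *PI* made up most of the sum in *mips1*, at 1.96 and 1.86 CPM there against 0.182 CPM or less in the other lines. *AP1* rose by 3.09 in *mips1 somi2* against *mips1*, on 13 and 10 counts against 1 and 2. The 5 root markers summed to at most 0.518 CPM in any library, and 2 of them were tested. *CASP2* fell in *somi2* against Col-0 (log2 fold change -1.67, edgeR adjusted p = 0.00895). *CASP1* rose in *mips1 somi2* against *mips1* (0.94, adjusted p = 0.0493). Both had at most 23 counts in a library, and neither was called in the other comparison. The 5 seed markers summed to 0.257 to 0.345 CPM in *somi2* and 0.254 to 0.458 CPM in *mips1 somi2*, against 0.0455 to 0.126 CPM in *mips1* and 0.0955 to 0.141 CPM in Col-0. The sum was thus higher with the *somi2* allele, but on few counts and with members that differed. *SESA1* had 3 to 13 counts in these lines and at most 1 in the others. *OLEO1* overlapped between *mips1 somi2* and *mips1*, and *CRA1* between *somi2* and Col-0. *CRU3* had no count with the allele, and *SESA2* had 1 count in 1 *somi2* library. Only *OLEO1* had enough counts to be tested, and it was not called in either comparison. The part of tissue makeup in the levels of the run was not tested.

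**Figure D3:**
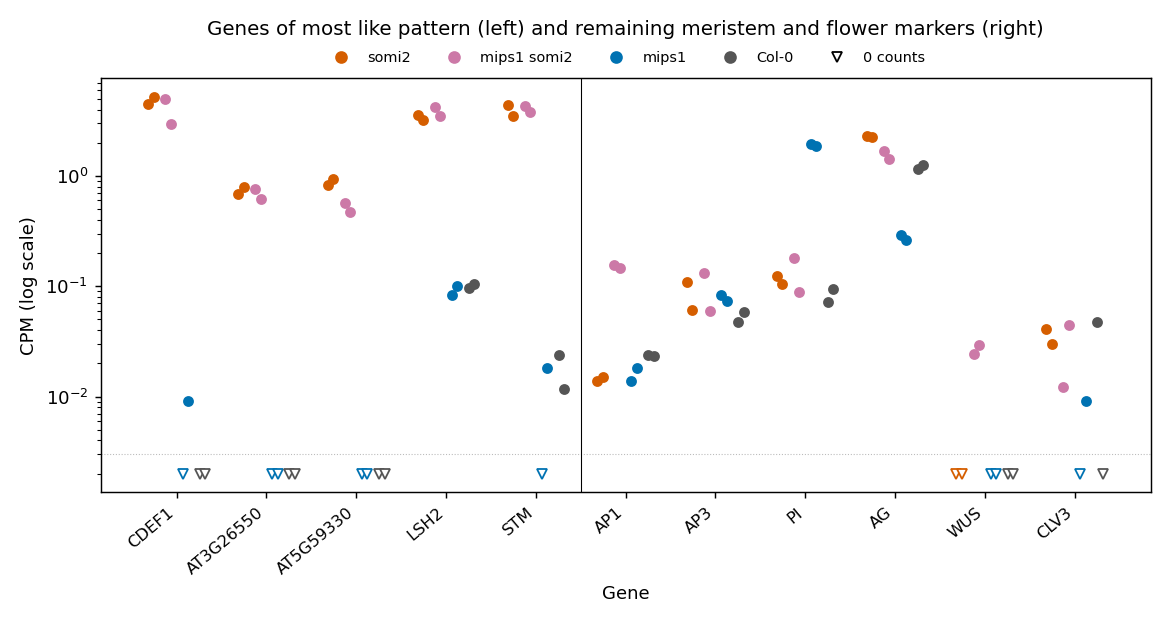
CPM of the 5 genes most like the run (left) and of the remaining meristem and flower markers (right) in each library, on a log axis, with open triangles for 0 counts. *STM* is at 3.52 to 4.43 CPM in the lines with the *somi2* allele, while *WUS* and *CLV3* stay near the limit of detection in all lines.

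Other hybrid proline-rich genes were listed by family and position. Of 22 listed, 17 had enough counts to be tested. In *somi2* against Col-0, 6 rose and 6 fell in the edgeR test, where 25.6% of all genes were called higher and 23.6% lower, with a median log2 fold change of 0.21 (all genes tested: -0.0018). The 6 that fell became 3 with library totals in place of TMM and 0 when a change of 1 or more on the log2 scale was also required. In *mips1 somi2* against *mips1*, 10 rose and 6 fell, with a median of 0.82 (all genes tested: 0.014), where 39.1% of all genes were called higher and 38.9% lower. The list thus had members in both directions, and the run's pattern was shared by few of them.

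AT1G62500 came closest, with 39.9 and 40.4 CPM in *somi2* and 49.5 and 44.0 CPM in *mips1 somi2*, against 0.112 and 0.0547 CPM in *mips1* and 0.0716 and 0 CPM in Col-0. Its ratio was 1698 in *somi2* against Col-0 (95% exact counting interval 581 to 8234, edgeR adjusted p = 1.29e-09) and 609 in *mips1 somi2* against *mips1* (363 to 1114, adjusted p = 4.83e-11). AT4G15160 had 0.897 and 1.13 CPM in *somi2* and 0.788 and 0.606 CPM in *mips1 somi2*, against 0.0559 and 0.0182 CPM in *mips1* and no count in Col-0, which made it at least 21.4-fold higher in *somi2* than in Col-0 (adjusted p = 2.76e-06). AT4G12545 was at least 5.34-fold higher in *somi2* than in Col-0, on 24 and 11 counts against none (adjusted p = 9.74e-04), and had 12 and 10 counts in *mips1*. All 3 genes thus had at most 3 counts in a Col-0 library, and in *mips1* they had between 2 and 12, where the run had 0 to 2.

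The cell wall linker gene *CWLP* rose in both comparisons, by 1.29 and 1.31 on the log2 scale, at 419 and 434 CPM in *somi2* and 455 and 424 CPM in *mips1 somi2*, against 187 and 166 CPM in *mips1* and 180 and 169 CPM in Col-0. The defence-linked genes had another order. *EARLI1* had 4.32 and 4.25 CPM in *somi2* and 2.96 and 2.97 CPM in *mips1 somi2*, against 40.2 and 40.3 CPM in *mips1* and 3.03 and 3.35 CPM in Col-0. It rose slightly in *somi2* (log2 fold change 0.41) and fell by 3.76 in *mips1 somi2* against *mips1* (edgeR adjusted p = 1.31e-12). *AZI1* likewise rose by 1.42 in *somi2* against Col-0 and fell by 1.35 in *mips1 somi2* against *mips1*. *EARLI1* and *AZI1* were thus highest in *mips1*, a line in which the run had no more than 2 counts.

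**Figure D4:**
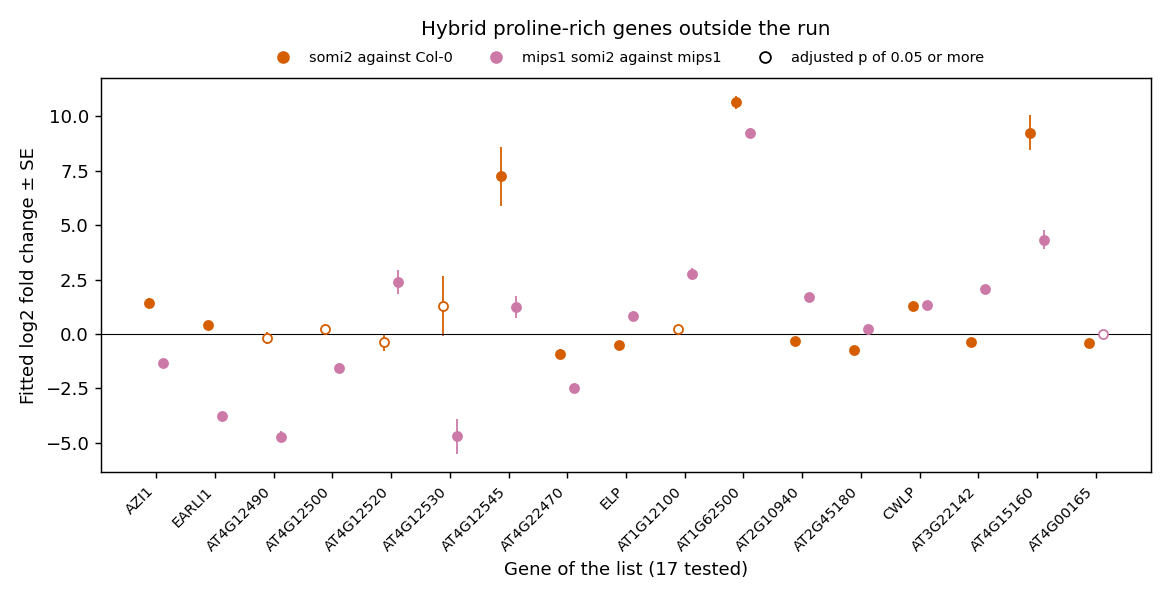
Fitted log2 fold change with its standard error for the 17 tested hybrid proline-rich genes outside the run, in *somi2* against Col-0 and in *mips1 somi2* against *mips1*, with open points where the adjusted p was 0.05 or more. AT1G62500 and *CWLP* lie above 0 in both comparisons. *AZI1* and *EARLI1* both lie above 0 in *somi2* against Col-0 and below 0 in *mips1 somi2* against *mips1*. The fitted values of AT1G62500, AT4G15160 and AT4G12545 in *somi2* rest on 0 to 3 counts in Col-0 and are no bounds.

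Over the wider superfamily, 102 genes outside the run were annotated and 51 were tested, a list that includes AT4G22490, AT4G22520 and part of the proline-rich genes above. In *somi2* against Col-0, 27 rose and 5 fell, with a median log2 fold change of 0.77, where 25.6% of all genes were called higher and 23.6% lower. In *mips1 somi2* against *mips1*, 30 rose and 16 fell, with a median of 1.15, where 39.1% of all genes were called higher and 38.9% lower. By the rule for genes silent in Col-0 and present in *somi2*, 6 of the 102 (5.88%) qualified, against 0.241% of all genes listed, the run included. With library totals in place of TMM, the calls over all genes in *somi2* against Col-0 were 11506 higher and 2109 lower (TMM: 6129 and 5646) and the median of all genes was 0.27 on the log2 scale, so shares of higher genes in this comparison are relative to the scaling.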

How the data were processed

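Rosette-leaf mRNA was sequenced in 8 libraries, 2 for each of 4 lines, and each library's line was taken from its label. The authors trimmed reads with Trimmomatic, mapped them with STAR 2.7.0d to TAIR10 and counted them with featureCounts 1.6.3. The deposited table holds raw counts of reads over the exons of each gene, not normalized, beside the summed exon length in bp. The counting required a mapping quality of 10, which STAR does not give to reads with several places, and used no strand. Labels and study name different library kits and growth lengths. The deposited normalized counts and the authors' tables of comparisons (log2 fold changes, p-values and adjusted p-values) were not used.

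Genes were filtered with filterByExpr (23916 kept, all 7 of the run among them) and scaled by TMM. The edgeR 4.0.16 quasi-likelihood fit (R 4.3.3) took all 8 libraries with line as the factor, and genes were called at a Benjamini-Hochberg adjusted p under 0.05. Names and sequences are from RefSeq TAIR10.1, which held 37051 of the 37336 genes (99.2%) and the same positions for all 7. Named genes are the 7, *MIPS1* and *BIG*, genes inside the run and 5 on each side, listed hybrid proline-rich genes called in *somi2* against Col-0, and the 5 of most similar pattern. *GAPA*, *CASP1*, *CASP2*, *WUS*, *CLV3*, *AG*, *PI*, *AP1* and the seed genes are markers, and further listed genes are named where their effect differed between backgrounds. The genes and lists were picked with earlier results of these data known. Markers were 5 leaf, 5 root, 4 flower, 5 seed and 3 meristem genes. Alternatives were RLE and library-size scaling, DESeq2 1.42.0, other filters, only the libraries compared, a replicate block, a required log2 fold change of 1, and each library left out in turn.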

Additional observations from a re-analysis of the deposited data

Results flagged for a closer look

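The effect of the *somi2* allele was compared between the *mips1* background and the wild-type background by the interaction term of the same edgeR fit, for the 8 tested neighbours and the hybrid proline-rich genes called in *somi2* against Col-0. The 7 genes of the run were not asked, since *mips1* and Col-0 are both at the limit of detection. Of these 19 genes, 15 differed at an adjusted p under 0.05, 7 with a positive and 8 with a negative difference (effect in *mips1* minus effect in wild type, log2). Over all 23916 genes tested, 62.1% had such a difference (30.8% positive and 31.2% negative), and the listed genes were picked for a call in 1 of the 2 effects. Among the neighbours, some of which share reads, the difference was 3.47 for AT4G22490, 2.04 for AT4G22545, -1.54 for AT4G22467, -1.57 for AT4G22470, -1.99 for AT4G22530 and -3.53 for AT4G22520. Among the listed genes it was 1.30 for *ELP* (AT1G12090), 2.01 for AT2G10940, 0.93 for AT2G45180, 2.44 for AT3G22142 and 0.41 for AT4G00165. It was -2.77 for *AZI1* (AT4G12470), -4.18 for *EARLI1* (AT4G12480), -6.01 for AT4G12545 and -4.92 for AT4G15160. The values of AT4G12545 and AT4G15160 rest on 0 counts in Col-0 and depend on the constant added by the fit. With 2 libraries per line, no library could be judged against its group.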

How the results depend on the processing

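All 7 genes of the run were called higher in *mips1 somi2* against *mips1* under each of 17 alternatives, the replicate block and the crossed replicate block included (7 genes each). Their fitted log2 fold changes kept their direction and stayed past the threshold in 112 of 112 refits, between 8.66 and 12.92, with adjusted p-values of at most 0.00868, a direction that the choice of genes at the limit of detection in *mips1* leaves no room to change. The few reads in *mips1* decided the size: without *mips1* replicate 2 the value was 12.37 for AT4G22475 and 12.16 for AT4G22485 (all libraries: 9.55 and 9.34), and without *mips1* replicate 1 it was 12.90 for AT4G22495 and 12.92 for AT4G22505 (all libraries: 10.8 for both). Replicate numbers are not said to pair the libraries, and deviations of same-numbered libraries correlated between -0.218 and 0.211; a crossed block was added after seeing the data. The count of listed hybrid proline-rich genes that fell in *somi2* against Col-0 was 6, and became 3 with library size only and 0 when genes also had to change by 1 or more on the log2 scale. The count of neighbours that fell there was 4 and became 1 with that requirement. With each library left out in turn, listed genes numbered 6 to 7 higher and 5 to 7 lower in *somi2* against Col-0, and 8 to 11 higher and 6 lower in *mips1 somi2* against *mips1*, while neighbours numbered 3 higher and 3 to 4 lower, and 3 higher and 4 lower. Summed over all 7 genes, shared reads counted again, the locus stood at 76.8 CPM in *somi2* and 55.9 CPM in *mips1 somi2*, against 0.0322 CPM in *mips1*. The limit of 3 counts per library bounds what can be said of *mips1* and Col-0.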
